A study of Mus musculus with 6 samples.

Results

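A set of 10 genes that encode junction proteins of lung endothelium and epithelium were examined in the lungs of GR+/+ and GRdim/dim mice after hemorrhagic shock (HS). They were chosen by gene symbol, as *Cdh5*, *Cldn5*, *Pecam1*, *Esam*, *S1pr1*, *Tjp1*, *Ocln*, *Cldn3*, *Cldn18* and *Cdh1*, and make up 10 of the 54532 genes in the deposited counts. All 10 had enough reads to be tested, and the lowest count of any of them in any library was 787, for *Ocln*.

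Bulk poly(A)-captured RNA of lung tissue was sequenced from 3 GR+/+ mice, labelled wild type, and 3 GRdim/dim mice, 1 library per mouse. GRdim/dim mice carry a germline point mutation in both copies of *Nr3c1*, the gene of the glucocorticoid receptor (GR), so that receptor dimers form poorly in every cell, and the GR+/+ mice were their littermates on the same 129/SvEv x C57BL/6 background. All animals were 10 to 16 weeks old, were anesthetized and ventilated, spent 1 h in HS with the mean arterial pressure held at 35 mmHg, and were resuscitated for 4 h with their own blood, fluids and norepinephrine. No lung without HS was sequenced, so the values compare genotypes after HS and do not show a response to HS. The GR+/+ mice were 2 females and 1 male and the GRdim/dim mice 1 female and 2 males, and 1 mouse was handled per day. Total counts ranged from 16361747 to 32082940 in GR+/+ and from 15687734 to 24444604 in GRdim/dim libraries. *Nr3c1* itself was counted at 138, 145 and 162 CPM (counts scaled to a library total of 1000000) in GR+/+ and at 159, 150 and 120 CPM in GRdim/dim, and a point mutation is not read out by this level.

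Cells of an endothelial or epithelial sheet are sealed to each other by tight junctions, in which claudins and occludin span the membrane and zonula occludens proteins tie them to actin, and by adherens junctions, in which a cadherin holds the neighbouring cell. In the lung, these contacts keep plasma inside the capillaries and fluid out of the alveoli. VE-cadherin (*Cdh5*) and claudin-5 (*Cldn5*) are typical of endothelium, E-cadherin (*Cdh1*), claudin-3 (*Cldn3*) and claudin-18 (*Cldn18*) of lung epithelium, while ZO-1 (*Tjp1*) and occludin (*Ocln*) are found in both. GR is a transcription factor whose dimer binds a palindromic element made of a pair of inverted hexamers, and glucocorticoids are known to tighten several endothelial barriers.

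Promoters are shown for the genes at which a reader would look first for GR elements, from 250 bases before to 50 bases after the start site in RefSeq (GRCm38.p6). *Cldn5* and *Cldn1* were the claudins with the largest differences between genotypes, *Amot* had the lowest log2 fold change among tight junction genes, and *Cldn18* was the only member with a GR hexamer among the promoters available. Capitals mark the hexamer AGAACA and the CCAAT box on either strand (TGTTCT and ATTGG on the reverse strand). GGGCGG, the Sp1 box, was searched on both strands as well, and the palindrome contains the hexamer.
Cldn5, chr16:18776597-18776896, plus strand: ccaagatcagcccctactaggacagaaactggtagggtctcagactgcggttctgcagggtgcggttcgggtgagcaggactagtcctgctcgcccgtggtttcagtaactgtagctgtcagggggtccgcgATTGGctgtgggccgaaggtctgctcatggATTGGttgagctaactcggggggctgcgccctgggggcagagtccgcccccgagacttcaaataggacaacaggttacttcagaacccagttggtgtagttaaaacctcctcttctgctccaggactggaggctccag
Cldn18, upstream start, chr9:99717218-99717517, minus strand: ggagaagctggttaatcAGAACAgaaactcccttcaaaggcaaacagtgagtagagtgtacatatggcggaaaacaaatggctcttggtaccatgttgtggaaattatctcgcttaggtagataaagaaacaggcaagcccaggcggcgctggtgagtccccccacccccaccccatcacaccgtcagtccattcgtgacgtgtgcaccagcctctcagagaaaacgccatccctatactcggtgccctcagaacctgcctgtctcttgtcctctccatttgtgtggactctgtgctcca
Cldn1, chr16:26371790-26372089, minus strand: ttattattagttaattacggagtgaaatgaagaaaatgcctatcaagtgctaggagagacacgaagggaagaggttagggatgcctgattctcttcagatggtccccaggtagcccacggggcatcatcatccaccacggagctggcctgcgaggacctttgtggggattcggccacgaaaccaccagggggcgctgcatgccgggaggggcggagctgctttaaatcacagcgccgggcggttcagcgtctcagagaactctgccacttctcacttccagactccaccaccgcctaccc
Amot, chrX:145487590-145487889, minus strand: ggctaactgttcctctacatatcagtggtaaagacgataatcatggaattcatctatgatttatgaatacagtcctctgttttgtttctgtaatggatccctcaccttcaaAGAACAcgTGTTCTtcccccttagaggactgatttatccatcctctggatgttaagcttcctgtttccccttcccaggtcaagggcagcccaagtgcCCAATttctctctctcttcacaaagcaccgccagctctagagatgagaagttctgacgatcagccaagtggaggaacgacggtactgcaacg

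RefSeq promoters were found for 5 of the 10 members, *Cldn5*, *Tjp1*, *Ocln*, *Cldn3* and *Cldn18*, with 7 start sites in all. The letters AGAACA occurred in 18.97% of all 32851 promoters of this length and, among the 7, only in the upstream promoter of *Cldn18*, beginning 233 bases before the start. The full palindrome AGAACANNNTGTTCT occurred in 0.01% of all promoters and in none of the 7. The *Cldn5* promoter held 2 reverse-strand CCAAT boxes, beginning 118 and 88 bases before the start, and a GGGCGG box on the reverse strand 45 bases before it. CCAAT was present in 37.41% and GGGCGG in 35.66% of all promoters. GGGCGG was also found in promoters of the members *Cldn3*, *Ocln* and *Tjp1* and in that of *Cldn1*. CCAAT was also found in a promoter of *Ocln* and in that of *Amot*. The *Amot* promoter held AGAACA and its reverse complement 2 bases apart, closer than in the palindrome searched. *Amot* was shown because of its fold change, and how often this spacing occurs among all promoters was not counted. Its window (145487590 to 145487889, minus strand) belongs to an internal start site, as the annotated gene spans 145446425 to 145505181. These matches describe the letters in these windows and say nothing of where GR was bound.

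Whether the genotypes differed in junction gene expression after HS was tested in a fit over 16568 genes with edgeR's quasi-likelihood test and Benjamini-Hochberg adjustment. Genes were called differentially expressed (DEGs) when the adjusted *p*-value was below 0.05 and the log2 fold change was larger than 0.5 in size. Of the 10 junction genes, 0 were DEGs by edgeR, against 0.169% of all genes tested (0.0724% higher and 0.0966% lower in GRdim/dim). At an unadjusted *p*-value under 0.05 by edgeR, 1 of the 10 passed, *Cldn5*, higher in GRdim/dim, against 9.6% of all genes (4.91% higher and 4.68% lower). By DESeq2, run on the same counts, *Cldn5* was also the 1 DEG among the 10, against 1.71% of all genes with an adjusted *p*-value (0.804% higher and 0.905% lower). *Cldn5* was again the only member whose 3 GRdim/dim libraries did not overlap the 3 GR+/+ libraries, which held for 14.8% of all genes (7.77% higher and 7.05% lower). The log2 fold change (GRdim/dim minus GR+/+) was above 0 for 4 members and below 0 for 6, with a median of -0.04 against 0.0064 over all genes.

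**Figure D1:**
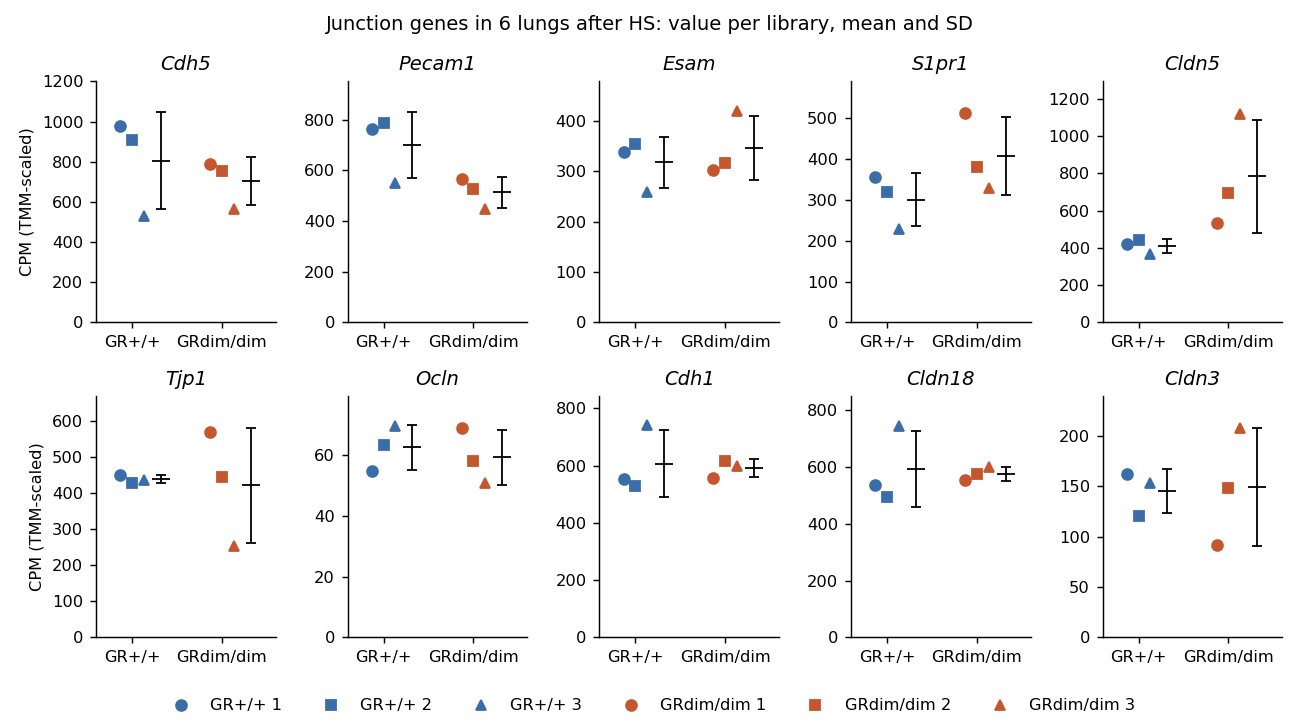
Level of each junction gene in CPM (y axis, from 0) in the 3 GR+/+ libraries (blue) and the 3 GRdim/dim libraries (orange), the marker shape giving the replicate number and black bars the mean and SD. *Cldn5* is the only gene whose genotypes do not overlap, while replicate 3 of GR+/+ is lowest for *Cdh5*, *S1pr1* and *Esam* and highest for *Cdh1* and *Cldn18*.

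Compared per kilobase of exons, *Cldn5* was the most abundant of the 10 transcripts in both genotypes, at 261 to 312 CPM per kb in GR+/+ and 378 to 791 CPM per kb in GRdim/dim. In GR+/+ lungs *Cdh5* followed with 126 to 233 CPM per kb and did not overlap *Cldn5*. *Cldn18*, *Cdh1*, *Cldn3*, *Pecam1*, *Esam* and *S1pr1* followed with means from 133 down to 98.9 CPM per kb, and each overlapped its neighbours in this order. *Tjp1* lay below them at 54.9 to 57.6 CPM per kb, and *Ocln* was lowest at 12.99 to 16.5 CPM per kb, neither overlapping the gene before it. In GRdim/dim lungs *Cldn5*, *Cdh5*, *Tjp1* and *Ocln* kept their places, and *S1pr1* stood in the third place with a mean of 134 CPM per kb instead of the eighth. Its 108 to 169 CPM per kb there overlapped those of *Cdh5* (134 to 188 CPM per kb) and *Cldn18* (124 to 135 CPM per kb). This order rests on the length of all annotated exons. The longest transcript is shorter for some genes, with 3441 of 6228 bases for *Pecam1* and 1865 of 2867 for *Esam*. For *S1pr1* and *Cldn5* it holds all exonic bases, 3046 and 1416. An order by transcript length was not computed and could differ.

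*Cldn5* encodes the claudin that closes tight junctions of capillary endothelium, and is read from a single annotated transcript on chromosome 16 (GRCm38, 18776847 to 18778262, plus strand). Its level was 419, 442 and 370 CPM in GR+/+ lungs and 535, 697 and 1119 CPM in GRdim/dim lungs. Every GRdim/dim lung was above every GR+/+ lung, and GRdim/dim replicate 3 stood furthest above. The means were 410 ± 36.7 and 784 ± 302 CPM (SD, n = 3 lungs each), with a log2 fold change of 0.94 (SE 0.26, 95% interval 0.35 to 1.52). Its unadjusted *p*-value by edgeR was 0.00512, the 294th smallest of 16568, and its adjusted *p*-value was 0.288. DESeq2 gave a log2 fold change of 0.93 with an adjusted *p*-value of 0.0338. This call was made in 1 of 6 runs of DESeq2 with 1 library left out, the run without GRdim/dim replicate 1 (log2 fold change 1.14, adjusted *p* = 0.00155). It was lost without GR+/+ replicate 1, 2 or 3 and without GRdim/dim replicate 2 or 3, where adjusted *p*-values ranged up to 0.184. Without GRdim/dim replicate 3, the log2 fold change by edgeR was 0.59, and the adjusted *p*-value was 0.338. Over all edgeR alternatives, the adjusted *p*-value ranged from 0.00202, without a filter on low counts, to 0.516, without GR+/+ replicate 1.

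GRdim/dim replicate 3 was also the library in which short and GC-rich transcripts in general stood higher. Genes of up to 1500 exonic bases had a median log2 CPM 0.28 above their 6-library mean in that library, whereas genes over 6000 bases had a median of -0.20. Genes with a transcript GC content over 55% stood 0.24 above their mean there, and at -0.19 in GRdim/dim replicate 1. *Cldn5*, with 1416 exonic bases and 60.45% GC, and *Cldn3*, with 1259 bases and 62.75% GC, are the shortest and most GC-rich of the 10 members. In GRdim/dim replicate 3 they stood 1.02 and 0.54 above their means, and *Tjp1*, the longest member at 7811 bases, stood lowest at -0.73. In GRdim/dim replicate 1 *Cldn3* was the lowest member, at -0.64. After each library's trend with length and GC content was taken out, *Cldn5* lay at -0.40, -0.42 and -0.52 in GR+/+ and at 0.29, 0.44 and 0.61 in GRdim/dim (log2 CPM relative to the mean of 6 libraries). The genotypes still did not overlap, and the distance between GRdim/dim replicate 3 and the other two was smaller. With the same trend as an offset in edgeR, a correction chosen after the data had been seen, the log2 fold change of *Cldn5* was 0.90, its adjusted *p*-value was 0.0700, and 0 of the 10 members were DEGs.

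**Figure D2:**
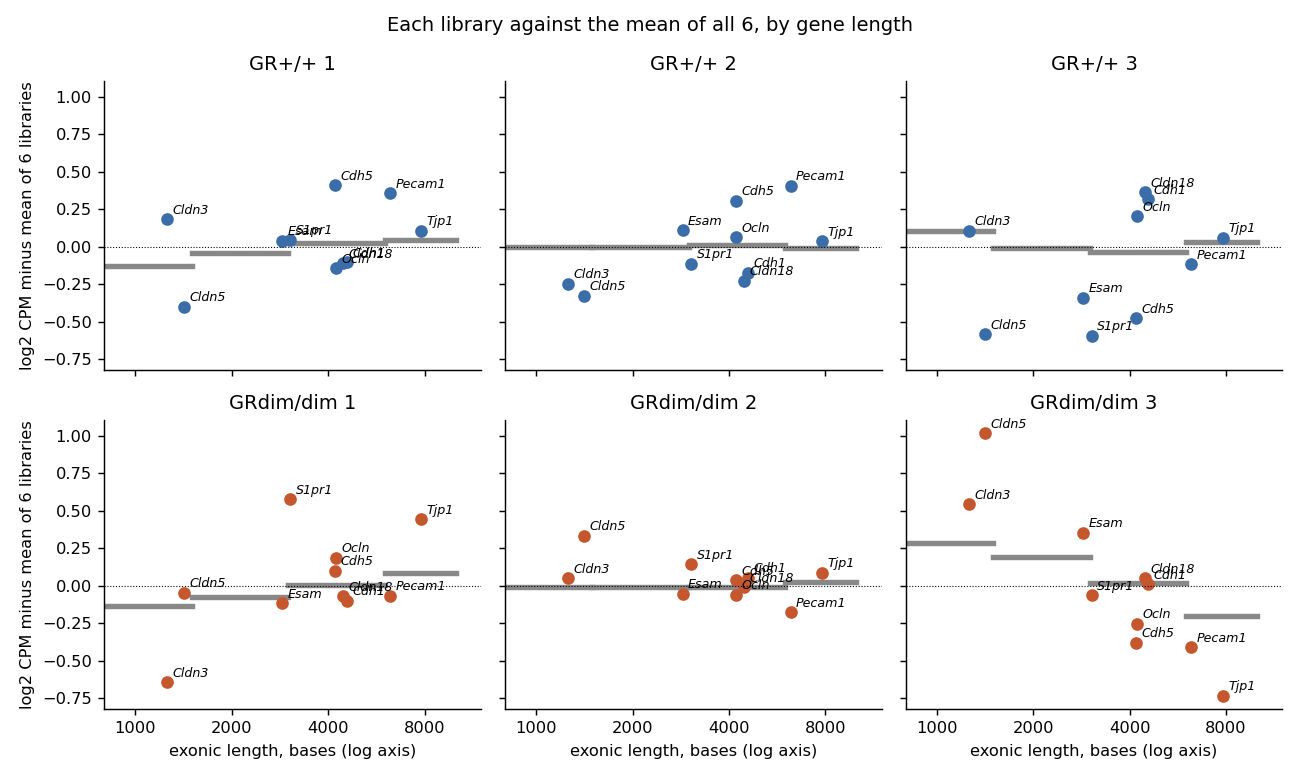
Each junction gene's log2 CPM minus its mean over the 6 libraries (y axis) against its exonic length in bases (x axis, log scale), 1 panel per library, with grey bars at the median of all tested genes in 4 length classes (the outer bars end within the plotted range). In GRdim/dim 3 the grey bars fall from 0.28 for the shortest to -0.20 for the longest class, and *Cldn5* at 1.02 and *Tjp1* at -0.73 are the ends of the 10 genes.

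The other endothelial members overlapped between genotypes. *S1pr1*, the endothelial and lymphocyte receptor for sphingosine 1-phosphate, a lipid that stabilizes endothelial junctions, was counted at 356, 319 and 228 CPM in GR+/+ and at 514, 380 and 330 CPM in GRdim/dim. The highest GRdim/dim lung was well above all others, but the lowest overlapped GR+/+ replicate 1. Its log2 fold change was 0.44 (SE 0.23, 95% interval -0.08 to 0.95), with an adjusted *p*-value of 0.598 by edgeR. *Pecam1*, the adhesion molecule of endothelial borders, platelets and leukocytes, was at 763, 789 and 549 CPM in GR+/+ and at 568, 528 and 448 CPM in GRdim/dim. GR+/+ replicate 3 fell within the GRdim/dim values, and the 2 remaining GR+/+ lungs were above all of them. The log2 fold change was -0.44 (SE 0.21, 95% interval -0.90 to 0.01), with an unadjusted *p*-value of 0.0565 and an adjusted one of 0.541 by edgeR.

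*Cdh5*, whose product holds endothelial adherens junctions together, was at 977, 909 and 529 CPM in GR+/+ and at 788, 755 and 565 CPM in GRdim/dim. Replicate 3 was the lowest of each genotype, and the GRdim/dim values lay within the GR+/+ range. The log2 fold change was -0.20 (SE 0.26, 95% interval -0.77 to 0.37, adjusted *p* = 0.883 by edgeR). *Esam*, an immunoglobulin-like adhesion molecule of endothelial tight junctions and platelets, gave 338, 355 and 260 CPM in GR+/+ and 303, 316 and 420 CPM in GRdim/dim. Its groups overlapped, and the log2 fold change was 0.13 (SE 0.20, 95% interval -0.33 to 0.58, adjusted *p* = 0.917 by edgeR). The interval of *Cdh5* includes the -0.44 measured for *Pecam1*, and that of *Esam* the 0.44 measured for *S1pr1*.

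*Tjp1* encodes ZO-1, the scaffold that links claudins and occludin to actin, and showed its largest spread among GRdim/dim lungs. It was counted at 450, 428 and 436 CPM in GR+/+ (438 ± 11.04, SD, n = 3) and at 568, 443 and 251 CPM in GRdim/dim (421 ± 160, SD, n = 3). The GR+/+ values lay inside the GRdim/dim range. The log2 fold change was -0.06 (SE 0.27, 95% interval -0.65 to 0.53, adjusted *p* = 0.975 by edgeR). *Ocln*, whose product spans the membrane of tight junctions, had the lowest level of the 10, with 54.9, 63.3 and 69.8 CPM in GR+/+ and 69.0, 58.2 and 50.8 CPM in GRdim/dim. These ranges overlapped almost fully, and the log2 fold change was -0.08 (SE 0.18, 95% interval -0.48 to 0.32, adjusted *p* = 0.944 by edgeR).

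The epithelial members overlapped between genotypes, with log2 fold changes near 0. *Cdh1*, which encodes the cadherin of epithelial adherens junctions, was at 554, 528 and 741 CPM in GR+/+ and at 555, 618 and 599 CPM in GRdim/dim. GR+/+ replicate 3 was the highest, and the GRdim/dim lungs lay between the GR+/+ values. Its log2 fold change was -0.04 (SE 0.20, 95% interval -0.48 to 0.40). *Cldn18*, whose product seals the alveolar epithelium, followed the same order of GR+/+ lungs with 537, 495 and 745 CPM, and gave 553, 575 and 601 CPM in GRdim/dim. The log2 fold change was -0.04 (SE 0.20, 95% interval -0.49 to 0.41), and both genes had an adjusted *p*-value of 0.976 by edgeR. *Cldn3*, a claudin of lung epithelium, was at 162, 120 and 153 CPM in GR+/+ and at 91.4, 148 and 208 CPM in GRdim/dim. Here the GRdim/dim lungs enclosed all GR+/+ lungs, with a log2 fold change of 0.04 (SE 0.27, 95% interval -0.56 to 0.63, adjusted *p* = 0.983 by edgeR). *Cldn3* shares 40 exonic bases with a gene on the opposite strand, *Wbscr25*, whose own counts were 2 to 15 per library, and reads in the shared bases cannot be told apart without strand. Of its 31-base windows, 1.22% occur in transcripts of other genes, among them *Cldn4*. No other member overlapped a neighbour's exons, and their shared windows were at most 0.48%.

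**Figure D3:**
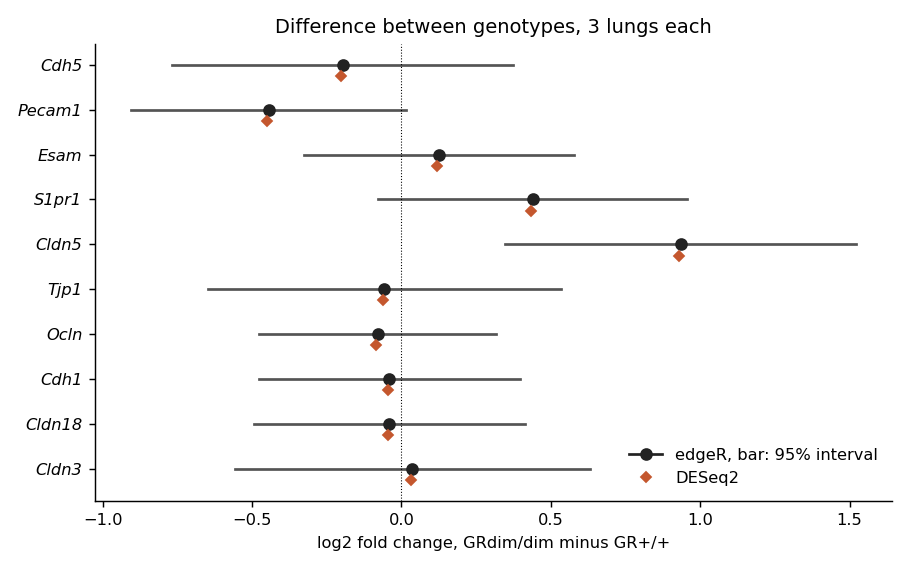
Log2 fold change of each junction gene, GRdim/dim minus GR+/+ (x axis), with its 95% interval from edgeR (black) and the DESeq2 estimate (orange diamonds), 3 lungs per genotype. The interval of *Cldn5*, from 0.35 to 1.52, is the only one that excludes 0.

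In lung tissue, fewer cells of a type and less RNA per cell cannot be told apart. Ratios between members in the same library do not depend on the scaling between libraries, and 9 were taken. They were not corrected for the trends with length and GC content. *Cldn18* to *Cdh1* was the most even of the 9 ratios, at 0.970, 0.939 and 1.01 in GR+/+ and 0.996, 0.931 and 1.003 in GRdim/dim, although *Cdh1* itself ranged from 528 to 741 CPM. Their log2 ratio differed by 0.01 between genotypes. The ratio of *S1pr1* to *Cdh5* was 0.364, 0.350 and 0.432 in GR+/+ and 0.652, 0.504 and 0.584 in GRdim/dim. This was the 1 ratio of 9 whose genotypes did not overlap, with a log2 difference of 0.60. The two-sided exact permutation test gave *p* = 0.1, the smallest value that 3 against 3 lungs allow, and 0.6 after adjustment over the 9 ratios.

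*Cldn5* to *Cdh5* was 0.429, 0.485 and 0.699 in GR+/+ and 0.679, 0.923 and 1.98 in GRdim/dim. GRdim/dim replicate 1 fell just below GR+/+ replicate 3, and the log2 difference was 1.03 (exact permutation test, *p* = 0.2, adjusted 0.6). The ratio of *Pecam1* to *Cdh5* was 0.780, 0.868 and 1.04 in GR+/+ and 0.721, 0.699 and 0.794 in GRdim/dim, a log2 difference of -0.27 (exact permutation test, *p* = 0.2, adjusted 0.6). The remaining ratios, of *Esam* and *Tjp1* to *Cdh5*, of *Ocln* and *Cldn3* to *Cdh1* and of *Cdh5* to *Cdh1*, overlapped between genotypes, with log2 differences from -0.14 to 0.28 and exact permutation *p*-values from 0.6 to 1. *Cdh5* to *Cdh1*, endothelial against epithelial cadherin, was 1.77, 1.72 and 0.713 in GR+/+ and 1.42, 1.22 and 0.942 in GRdim/dim. Counts of *Cdh5* were below those of *Cdh1* in replicate 3 of either genotype. Per kilobase of exons this was so in GR+/+ replicate 3 (126 against 162 CPM per kb), but not in GRdim/dim replicate 3 (134 against 131 CPM per kb).

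**Figure D4:**
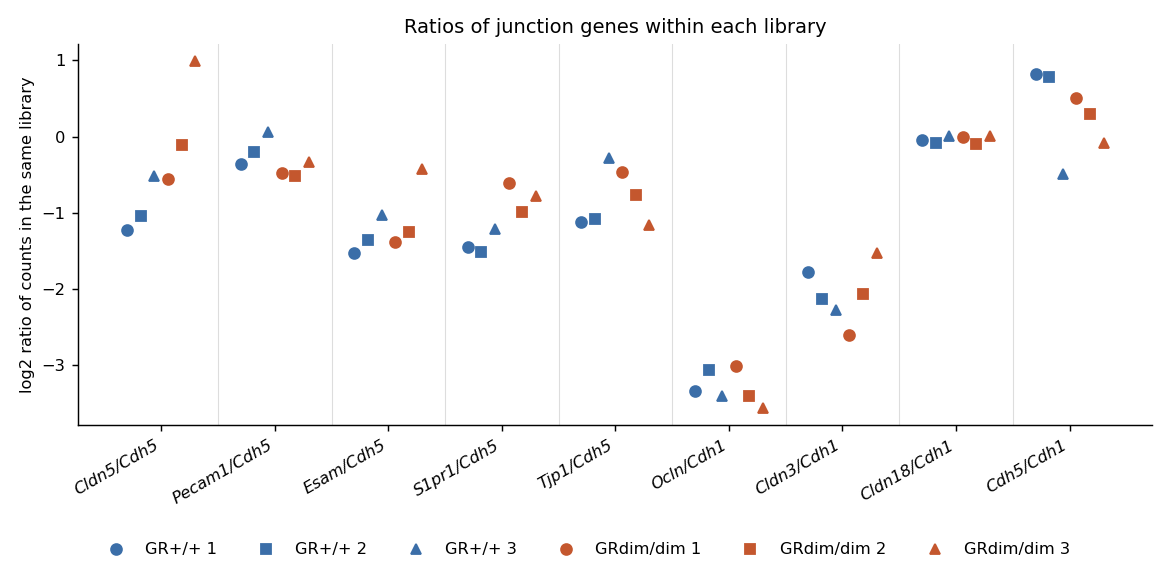
Log2 ratio of the counts of 2 junction genes in the same library (y axis) for 9 ratios, GR+/+ in blue and GRdim/dim in orange, 1 point per lung. Without correction for length and GC content, *S1pr1*/*Cdh5* is the only ratio whose genotypes do not overlap (log2 difference 0.60). *Cldn18*/*Cdh1* stays close to 0 in all 6 lungs.

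Markers of the cell types that carry these junctions were summed per library. The 20 endothelial markers, led by *Cav1* and *Eng*, summed to 6292 to 9262 CPM in GR+/+ and 6282 to 7566 CPM in GRdim/dim. Of the 20, 4 were higher in GRdim/dim, and the median log2 fold change was -0.20. At an unadjusted *p*-value under 0.05 by edgeR, 5 were lower and 1 higher, against 4.68% and 4.91% of all genes. DEGs numbered 0 by edgeR, and by DESeq2 1 lower (against 0.905% of all genes) and 0 higher. Replicate 3 of each genotype had the lowest sum, as it had the lowest *Cdh5* and *Pecam1*. The 11 epithelial markers, led by *Krt19* and *Krt7*, summed to 1819 to 2886 CPM in GR+/+ and 1736 to 2853 CPM in GRdim/dim, highest in replicate 3 of each. Alveolar type 1 markers (*Ager*, *Emp2*) and type 2 markers (*Sftpc*, *Sftpb*) overlapped between genotypes as well, at 6397 to 8345 against 6323 to 7733 CPM and at 17653 to 25855 against 17648 to 26152 CPM. None of these 4 lists had a marker at 0.

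Within endothelium, sums also overlapped for aerocyte capillary markers (865 to 1665 CPM in GR+/+ and 1101 to 1330 CPM in GRdim/dim), general capillary markers (1097 to 1667 and 1464 to 1740 CPM), and venous markers (780 to 1140 and 820 to 1068 CPM). The same held for arterial markers (1269 to 1937 and 1508 to 3079 CPM) and lymphatic markers (543 to 744 and 660 to 1522 CPM), of which 1, *Ccl21a*, a gene with near-identical copies, had no count in any library. The lists of B and T cells, leukocytes and platelets did not overlap and were higher in GRdim/dim. The 12 B and T cell markers summed to 85.4 to 165 CPM in GR+/+ and 183 to 230 CPM in GRdim/dim, with 12 of 12 higher. The 6 leukocyte markers summed to 411 to 625 and 665 to 857 CPM, with 6 of 6 higher, and the 8 platelet markers to 18.0 to 25.0 and 29.0 to 38.5 CPM, with 6 of 8 higher. Of all 16568 genes tested, 8439 had a log2 fold change above 0. Higher at an unadjusted *p*-value under 0.05 by edgeR were 6 of 12 B and T cell markers, against 4.91% of all genes. The same held for 2 of 6 leukocyte and 1 of 8 platelet markers. Single markers did not overlap and were higher for 4, 2 and 1 of these lists' genes, against 7.77% of all genes. Lymphocytes also carry *S1pr1*, and platelets and leukocytes carry *Pecam1*, platelets *Esam*. The part of these cells in the members' values was not tested. The 8 neutrophil markers summed to 249 to 485 CPM in GR+/+ and to 354 to 1106 CPM in GRdim/dim, highest in GRdim/dim replicate 1, and these sums overlapped. All 7 neutrophil markers tested had a log2 fold change above 0, with a median of 0.95. Of these, 2 were DEGs by DESeq2, against 0.804% of all genes higher, and 0 by edgeR. An unadjusted *p*-value under 0.05 by edgeR was reached by 3 of the 7, against 4.91% of all genes higher. DESeq2 also called 1 higher marker each in the lists of B and T cells, platelets and alveolar type 1 cells. It called 1 lower marker each in the endothelial, aerocyte capillary and club cell lists. Sums of fibroblast and smooth muscle, club cell, ciliated cell, mesothelial and erythroid markers overlapped between genotypes. Single markers in these lists differed at an unadjusted *p*-value under 0.05 by edgeR. Lower were 2 of 6 club cell and 1 of 8 ciliated cell markers, against 4.68% of all genes. Higher were 1 of 6 mesothelial and 1 of 6 tested erythroid markers, against 4.91%.

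The other genes of the cell junctions were counted in 7 lists. Of 107 genes tested out of the 125 listed genes present in the counts, 49 had a log2 fold change above 0 and 58 below, with a median of -0.06. No gene (0 of 107) was a DEG by edgeR. An unadjusted *p*-value under 0.05 by edgeR was reached by 7 higher and 3 lower genes, 10 of 107 against the 9.6% of all genes. By DESeq2, 2 were DEGs higher and 1 lower in GRdim/dim, 3 of 107 against 1.71% of all genes. Libraries did not overlap for 9 higher and 5 lower genes, 13.1% of the list against the 14.8% of all genes.

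Claudins other than the 3 members had 10 of 20 genes tested, 8 of them with a log2 fold change above 0 and a median of 0.21. *Cldn1*, a claudin of barrier epithelia, was low at 9.14, 9.65 and 8.07 CPM in GR+/+ and at 26.3, 29.3 and 13.6 CPM in GRdim/dim. All GRdim/dim lungs were above all GR+/+ lungs, most clearly replicates 1 and 2. Its log2 fold change was 1.37 (SE 0.29, 95% interval 0.72 to 2.01), with an adjusted *p*-value of 0.131 by edgeR and of 0.00154 by DESeq2. DESeq2 called it in 5 of 6 runs with 1 library left out and not without GRdim/dim replicate 2 (adjusted *p* = 0.0536), and edgeR called it without GRdim/dim replicate 3 (adjusted *p* = 0.0451). The next smallest *p*-value in the list was that of *Cldn34c1*, with a log2 fold change of 0.65 and an adjusted *p*-value of 0.686 by edgeR.

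Of the 25 tight junction proteins and scaffolds tested, 19 had a log2 fold change below 0, with a median of -0.16. *Jam2*, a junctional adhesion molecule of vascular and lymphatic endothelium, was at 51.3, 63.7 and 46.4 CPM in GR+/+ and at 128, 140 and 77.6 CPM in GRdim/dim, again without overlap. Its log2 fold change was 1.10 (SE 0.23, 95% interval 0.58 to 1.62), with an adjusted *p*-value of 0.131 by edgeR and of 0.00408 by DESeq2. Without 1 library, DESeq2 called it in 4 of 6 runs, not without GR+/+ replicate 1 or GRdim/dim replicate 2, and edgeR called it without GRdim/dim replicate 3 (adjusted *p* = 0.0488). *Amot*, an angiomotin that binds tight junction scaffolds, was lower, at 13.6, 10.4 and 12.2 CPM in GR+/+ and 7.60, 4.61 and 4.78 CPM in GRdim/dim. Its log2 fold change was -1.09 (SE 0.28), with an adjusted *p*-value of 0.232 by edgeR and of 0.0191 by DESeq2, which called it in 1 of 6 runs with 1 library left out, that without GRdim/dim replicate 1.

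Among direct partners of ZO-1 and occludin, cingulin (*Cgn*) was at 148, 137 and 173 CPM in GR+/+ and at 134, 89.9 and 97.7 CPM in GRdim/dim. Its libraries did not overlap, and the log2 fold change was -0.51 (SE 0.19), with an adjusted *p*-value of 0.441 by edgeR. JAM-A (*F11r*) had a log2 fold change of -0.17 (SE 0.19) and an adjusted *p*-value of 0.848 by edgeR. Both were below 0, as *Tjp1* and *Ocln* were, and neither was a DEG by edgeR or DESeq2.

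The 25 adherens junction genes tested had a median log2 fold change of 0.06, and 0 of them reached an unadjusted *p*-value under 0.05 by edgeR or were DEGs by DESeq2. The catenins that bind the tails of VE-cadherin and E-cadherin lay near 0 or below, with log2 fold changes of -0.05 (SE 0.19) for *Ctnnb1* and -0.25 (SE 0.20) for *Jup*. The phosphatase *Ptprb*, which acts on VE-cadherin, had a log2 fold change of -0.19 (SE 0.22). The smallest *p*-values belonged to the small GTPase *Rap1b* (log2 fold change 0.26, adjusted *p* = 0.708) and the adhesion molecule *Nectin1* (0.27, adjusted *p* = 0.719), both by edgeR.

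In 15 further endothelial contact genes tested, the median log2 fold change was 0.06. The sialomucin *Cd34* was at 105, 111 and 107 CPM in GR+/+ and at 159, 142 and 135 CPM in GRdim/dim, without overlap, with a log2 fold change of 0.43 (SE 0.15) and an adjusted *p*-value of 0.411 by edgeR. *Cdc42*, a GTPase that organizes junctional actin, had a log2 fold change of 0.36 (SE 0.17) and an adjusted *p*-value of 0.564. Around *S1pr1*, 13 genes of the sphingosine 1-phosphate pathway were tested, with 4 above and 9 below 0 and a median log2 fold change of -0.19. None of them (0 of 13) reached an unadjusted *p*-value under 0.05 by edgeR or was a DEG by DESeq2. Of the kinases that make the ligand, *Sphk1* had a log2 fold change of 0.26 (SE 0.20) and *Sphk2* one of -0.24 (SE 0.22). Of the transporters that export it, *Spns2* had a log2 fold change of -0.26 (SE 0.20) and *Mfsd2b* one of -0.03 (SE 0.29). The phosphatases *Sgpp1* and *Plpp1* had the smallest *p*-values, with log2 fold changes of 0.31 (SE 0.15) and -0.28 (SE 0.17).

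Gap junction connexins had 11 genes tested and the highest median of the 7 lists, 0.29, with 3 genes higher and 0 lower at an unadjusted *p*-value under 0.05 by edgeR (against 4.91% and 4.68% of all genes), and 0 DEGs by edgeR or DESeq2. *Gja5*, the connexin of arterial endothelium, was at 36.0, 37.1 and 29.9 CPM in GR+/+ and at 40.2, 77.4 and 60.7 CPM in GRdim/dim. Its libraries did not overlap, and the log2 fold change was 0.79 (SE 0.24), with an adjusted *p*-value of 0.312 by edgeR. *Gjb5*, an epithelial connexin counted at no more than 3.67 CPM, had a log2 fold change of 1.62 (SE 0.49) and the same adjusted *p*-value. Desmosome proteins, by contrast, had 7 of 8 genes below 0 and a median of -0.33. *Ppl*, the linker periplakin, was at 215, 169 and 255 CPM in GR+/+ and at 137, 155 and 128 CPM in GRdim/dim, with a log2 fold change of -0.61 (SE 0.19) and an adjusted *p*-value of 0.342, and *Dsg2*, a desmosomal cadherin, had a log2 fold change of -0.53 (SE 0.24) and an adjusted *p*-value of 0.523, both by edgeR.

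**Figure D5:**
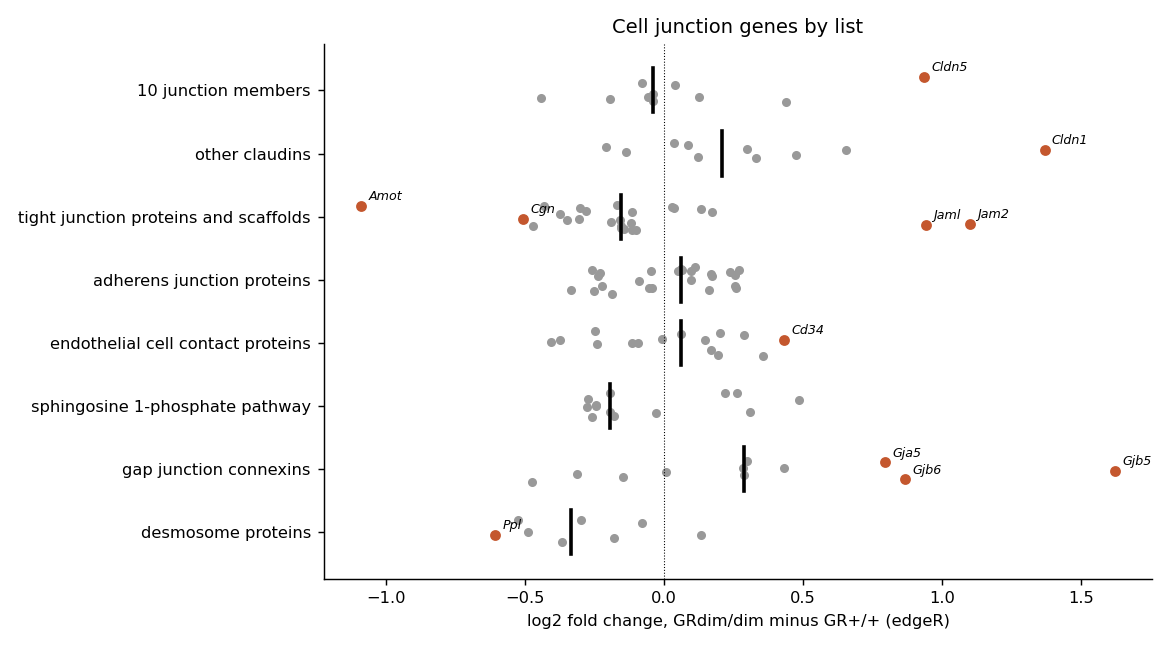
Log2 fold change, GRdim/dim minus GR+/+ by edgeR (x axis), of the 10 junction genes and of the tested genes in 7 further lists (y axis), with black bars at the median of each. Orange points with names have an unadjusted *p*-value under 0.05, 7 higher and 3 lower outside the 10 members, among them *Jaml* (0.94) and *Gjb6* (0.87), and none of these had an adjusted *p*-value under 0.05.

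The transcripts most like *Cdh5*, *Cldn5* and *Cdh1* over the 6 libraries were sought among 10687 genes with a mean of at least 10 CPM, by Pearson's correlation of log2 CPM. These describe 6 lungs that share their libraries, depth and length trends. *Cdh5* was most like *Caskin2* (r = 0.996), *Gm14066* (0.994), *Prelp* (0.993), *Pacs1* (0.989) and *Nfatc1* (0.988), all lowest in GR+/+ replicate 3. *Cldn5* was most like *Alad* (r = 0.999), *Tmbim6* (0.993), *Mcrip1* (0.988), *Gpx7* (0.988) and *Abhd11* (0.981), all lowest in GR+/+ replicate 3 and highest in GRdim/dim replicate 3. *Cdh1* was most like *Gm10076* (r = 0.991), *Fam3c* (0.983), *Kif21a* (0.977), *Ggact* (0.972) and *Rragd* (0.971), all highest in GR+/+ replicate 3. No gene of the junction lists was among these 15.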

How the data were processed

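For 6 lung libraries, the authors deposited whole-number read counts of each gene, neither normalized nor pooled. The aligner, counting tool and strand setting are not given in the sources used here. The submitters' processing notes name mm10 and DESeq2. Coordinates are those of GRCm38, in which 53462 of the 54532 genes have the same position in GENCODE M21.

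From these counts, levels were computed as CPM with TMM scaling and, between genes, as CPM per kilobase of exons. edgeR 4.0.16 (R 4.3.3; filterByExpr, robust quasi-likelihood test, two-sided) tested 16568 genes, with Benjamini-Hochberg adjustment over all of them and no covariate. Standard errors and intervals come from that fit, and log2 CPM used a prior count of 2. DESeq2 1.42.0 with default settings was the alternative and gave adjusted *p*-values for 15917 genes. The others were RLE scaling, other filters, a replicate block, a sex covariate, no fold threshold and each library left out. A correction for length and GC content (from GENCODE M21 transcripts, 99.93% of the genes tested) and DESeq2 with libraries left out were chosen later, with the data in view. The code was tested on simulated data.

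Members, lists and rules were chosen with earlier results of these data known. The rule named all 10 members, *Nr3c1*, the 2 genes with the smallest *p*-values of each list, direct partners of members, the 2 most abundant markers of a list and, for 3 members, the 5 genes most correlated with them. *Jaml*, *Gjb6*, *Cldn4*, *Wbscr25*, *Sphk2* and *Mfsd2b* were named outside it, after their values were seen. Replicates of a genotype differed by a chi-square per gene of 20.9 to 70.1, where sampling noise gives about 1, and were kept as separate mice. With counts of 787 or more per member, the spread between 3 mice, not counting error, limits the precision. Replicate numbers did not pair the samples (correlations of same-numbered libraries 0.22, 0.04 and -0.05).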

Additional observations from a re-analysis of the deposited data

How the results depend on the processing

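The replicate block left 0 of the 10 members called (34 DEGs over all genes, against 28), and the sex covariate, RLE scaling, the count minimum of 10, no fold threshold and the length and GC correction also left 0. Without a filter on low counts, edgeR called 522 DEGs, 1 member (*Cldn5*) and 5 wider junction genes, and DESeq2 called 272, 1 and 3. With 1 library left out, edgeR called 4 to 22 DEGs, 0 members and 0 to 2 wider genes, and DESeq2 174 to 399, 0 to 1 and 1 to 6. The edgeR count moved most without GR+/+ replicate 1 (12), 2 (4) or 3 (17) or GRdim/dim replicate 3 (14), and the 2 wider genes, *Cldn1* and *Jam2*, were called without GRdim/dim replicate 3. Non-overlapping ratios numbered 1 to 3, with 3 without GR+/+ replicate 3 and 2 without GR+/+ replicate 1 or GRdim/dim replicate 1 or 3. The number of non-overlapping ratios could not fall in these runs, as leaving out a library can only narrow the range of its group. The cause of the moves in the counts of DEGs and wider genes was not tested. Replicate numbers only name the samples here.

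Directions near 0 depended on single libraries. Log2 fold changes with 1 library left out, by either tool, ranged from -0.034 to 0.22 for *Esam*, -0.34 to 0.21 for *Tjp1*, -0.21 to 0.023 for *Ocln*, -0.28 to 0.30 for *Cldn3*, -0.16 to 0.16 for *Cldn18*, -0.14 to 0.13 for *Cdh1*, -0.14 to 0.033 for *Ctnnb1* and -0.14 to 0.058 for *Nr3c1*. Log2 ratio differences ranged from -0.012 to 0.46 (*Esam*/*Cdh5*), -0.14 to 0.30 (*Tjp1*/*Cdh5*), -0.22 to 0.059 (*Ocln*/*Cdh1*), -0.27 to 0.26 (*Cldn3*/*Cdh1*), -0.017 to 0.041 (*Cldn18*/*Cdh1*) and -0.57 to 0.088 (*Cdh5*/*Cdh1*). The replicate block turned *Cldn3* to -0.024, and the sex covariate turned *Cldn3* to -0.0034, *Cldn18* to 0.0033 and *Cdh1* to 0.018. *Cdh5*, *Cldn5*, *Pecam1* and *S1pr1* kept their direction in all 19 alternatives, but not their size. With 1 library left out, these 4 ranged, in this order, from -0.42 to -0.029 (nearest to 0 without GR+/+ replicate 1), 0.59 to 1.16 (lowest without GRdim/dim replicate 3), -0.59 to -0.34 and 0.23 to 0.58 (lowest without GRdim/dim replicate 1), and the log2 ratio difference of *Cldn5* to *Cdh5* from 0.59 to 1.36 (lowest without GRdim/dim replicate 3).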
